A study of Mus musculus with 80 samples.

Results

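A set of 1866 genomic tiles of 500 bp was followed that carried little methylation in wild-type mouse embryonic stem cells (ESCs) in serum and much more in the matching cells without TET enzymes. Members were autosomal tiles with 20 or more calls and 3 or more cytosine positions in all 15 files of the TET lines, a level of 40% or less in TET WT serum, and a level at least 30 percentage points higher in TET TKO serum. They were 1866 of 39358 tiles that met the depth rule. Of the others, 29254 were also at 40% or less in TET WT serum but had a smaller gap (called other low tiles here), and 8238 were above 40%. The members were thus chosen by the serum levels of the TET lines, which are therefore given as a description without a test.

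TET enzymes oxidise 5-methylcytosine to 5-hydroxymethylcytosine and further products, and are known in ESCs for opposing methylation at enhancers and at the edges of CpG islands. UHRF1 binds hemimethylated DNA behind the replication fork and brings the maintenance methyltransferase DNMT1 there. Bisulfite reads 5-methylcytosine and 5-hydroxymethylcytosine alike, so every level below is their sum.

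The study moved ESCs from serum with LIF to 2i, a serum-free medium with LIF, the MEK inhibitor PD0325901 and the GSK3 inhibitor CHIR99021, and read methylation by reduced representation bisulfite sequencing (RRBS), which samples CpG-rich fragments. TET WT (wild type) and TET TKO (genotype TET1/2/3-/-), both of C57/129/FVB background, were sampled in serum and at 48, 96 and 168 h of 2i. Wild-type E14, and UHRF1 WT and UHRF1 KO (genotype UHRF1-/-) of E14 background, were sampled in serum and at 24, 48, 72, 96 and 168 h. Each group had 2 files except TET WT at 168 h and UHRF1 WT in serum (1 usable file each). The methods describe the floxed lines as recombined by a tamoxifen-inducible Cre shortly before the experiment. The paper lists the deletion of Uhrf1 as inducible and that of Tet1/2/3 as constitutive. In UHRF1 KO, time in 2i may therefore run together with time since deletion. Whether a line was 1 clone, and whether replicates of these files were separate cultures, was not stated in the labels or the methods of the main text. The supplemental methods were not read. So p-values measure the spread between files only. The TET and E14-based lines also differ in background, so line and strain cannot be told apart.

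Usable RRBS files held 3208182 to 43706248 calls, and those of the TET lines 5594622 to 43706248. RNA was measured only in E14, where Pou5f1, Sox2 and Nanog, transcription factors of pluripotent cells, stood at 8.29 ± 0.13, 7.28 ± 0.14 and 6.78 ± 0.13 in serum on the log2 scale of the authors (SD, n = 3). Tet1, Tet2 and Tet3 stood at 6.15 ± 0.10, 4.23 ± 0.11 and 0.88 ± 0.17 there, and the deletions in the knockout lines could not be checked in RNA. In 2i these 3 stood at 5.08 ± 0.13, 4.04 ± 0.19 and 1.04 ± 0.19 at 6 h. They stood at 3.24 ± 0.50, 1.65 ± 0.74 and -0.82 ± 0.67 at 24 h, and at 4.18 ± 0.50, 3.70 ± 0.55 and -0.64 ± 0.51 at 72 h. The paper describes their transcript levels as similar during the conversion, and the differences between these values were not tested here. Tiles lie on the build NCBIM37, for which no annotation was used here, so no gene, exon or promoter is named for them.

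The members held intermediate methylation in TET WT rather than none. Their median level in serum was 21.4% and 21.3% in the TET WT files and 65.6% and 66.7% in the TET TKO files. The other low tiles had medians of 0.459% and 0.569% in TET WT and 1.22% and 1.33% in TET TKO. The tiles above 40% had group medians of 70.2% and 87.1%. Differences between these classes in other files follow in part from how the classes were formed, since most other low tiles lay near 0% already in TET WT serum.

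Membership depended on the wild-type level. Of 27475 tiles at 10% or less in TET WT serum 312 were members (1.14%), against 530 of 1567 between 10% and 20% (33.8%), 542 of 1084 between 20% and 30% (50.0%) and 482 of 994 between 30% and 40% (48.5%). Just inside the rule, chr10:120988001-120988500 stood at 39.993% in TET WT serum, with 92.2% in TET TKO serum, and chr19:9154001-9154500 at 39.988% and 81.0%. Just outside the level were chr8:124078001-124078500 at 40.001% with a gap of 35.3 points and chr4:57527501-57528000 at 40.016% with a gap of 37.7 points. At the gap of 30 points, chr7:134895501-134896000 (30.001) and chr10:126535501-126536000 (30.008) were just inside, and chr10:122117501-122118000 (29.998) and chr2:69604001-69604500 (29.993) just outside.

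Members were sparser in cytosine positions than the other low tiles. A member held a median of 8 positions (quartiles 6 and 11), an other low tile 22 (13 and 37) and a tile above 40% 7 (5 and 9), with the strands of a CpG listed as separate positions. The median number of calls per tile and file was 71 in members, 185 in other low tiles and 64 in tiles above 40%. Members lay on all 19 autosomes, from 3.22% of the tiles of chromosome 6 to 6.06% of those of chromosome 17. They formed 1754 groups when members with gaps of at most 2 kb were joined, of which 1658 were single tiles and 13 held 3 or more. Among the 374 members next to another tile of the set, 137 (36.6%) had a member beside them, against 201 of 21731 other low tiles (0.925%) and 63 of 642 tiles above 40% (9.81%).

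The first comparison asked whether the genotype gap of serum was still there in 2i, in files of which the rule used the depth and not the methylation levels. It was, with a smaller median at each later time, and the change of the gap over time was not tested. Of the 1866 members, 1616 (86.6%) were higher in TET TKO than in TET WT at 48 h, 1448 (77.6%) at 96 h and 1304 (69.9%) at 168 h, at an adjusted p under 0.05 and a difference of 20 points or more (quasi-binomial model, quasi-likelihood F test, Benjamini-Hochberg over all 39358 tiles). The same calls were made for 10%, 8.99% and 12% of all tiles, and for 1052 (3.6%), 581 (1.99%) and 361 (1.23%) of the other low tiles. Most of all tiles were other low tiles, a class formed with a smaller gap, so low shares in both follow in part from the classes. Among tiles above 40%, 76.9%, 70.3% and 82.6% were higher in TET TKO by any amount at these times. Among members these shares were 99.8%, 99.7% and 99.9%. A higher level in TET TKO was thus frequent in methylated tiles too. TET WT had 1 file at 168 h, so the calls at that time assume that it varies like the replicated groups. Of the members, 1099 (58.9%) were called at all 3 times and 103 (5.52%) at none. Without TET TKO 96 h replicate 1 the call at 96 h was made for 51.3% of the members. Members were chosen for a gap measured in serum of the same lines, so the direction was likely beforehand, and the size and its course are what these files add.

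**Figure D1:**
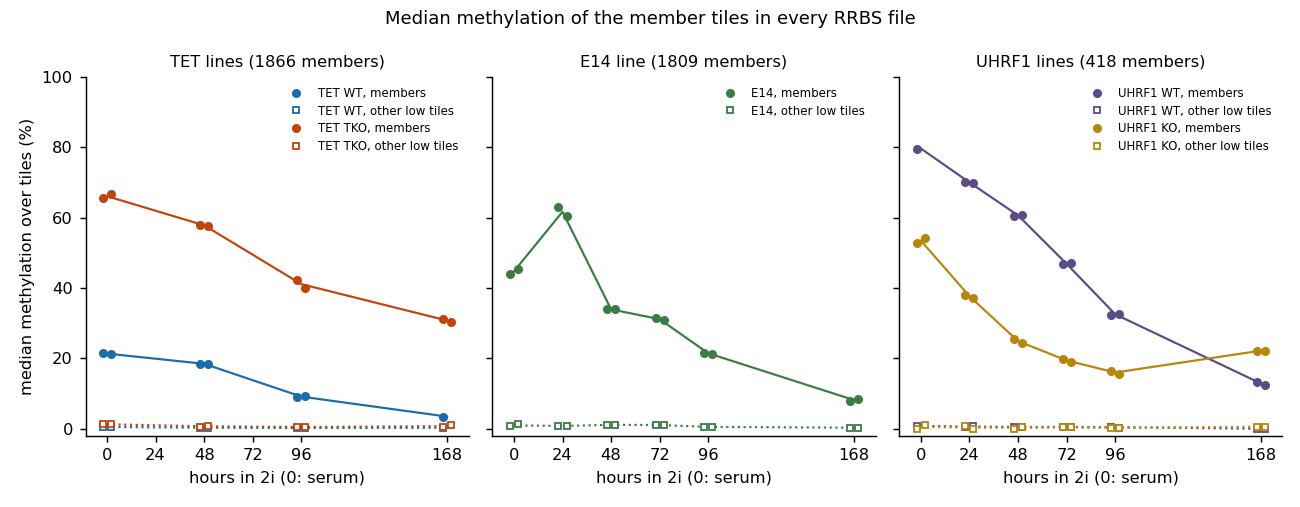
Median methylation (%) over tiles in each RRBS file against hours in 2i, with serum at 0, for the TET, E14 and UHRF1 lines. Filled circles are members and open squares the other low tiles, points are single files and lines join the mean of the files of a group. Members ran from 66.7% to 30.4% in TET TKO files and from 21.4% to 3.46% in TET WT files, and the E14 and UHRF1 WT files began above TET WT.

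The median difference between TET TKO and TET WT over the members was 36.7 points at 48 h, 29.0 at 96 h and 25.4 at 168 h. Over all tiles the medians were 0.794, 0.544 and 0.778 points. Over the tiles above 40% in TET WT serum they were 8.40, 7.83 and 16.3 points, larger at 168 h than at 48 h. Of these, 937 of 8238 (11.4%) also had a serum gap of 30 points or more. In TET WT the median member stood at 18.5% and 18.4% in the 48 h files, 9.06% and 9.23% at 96 h and 3.46% in the 168 h file. In TET TKO it stood at 58.0% and 57.7%, then 42.3% and 40%, then 31.2% and 30.4%. Thus every TET TKO file, also after 168 h of 2i, had a higher median than both TET WT serum files, and 1552 of the 1866 members (83.2%) were above their own TET WT serum level in TET TKO at 168 h. That serum level was chosen to be low by the rule, so these are descriptions and support nothing further.

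**Figure D2:**
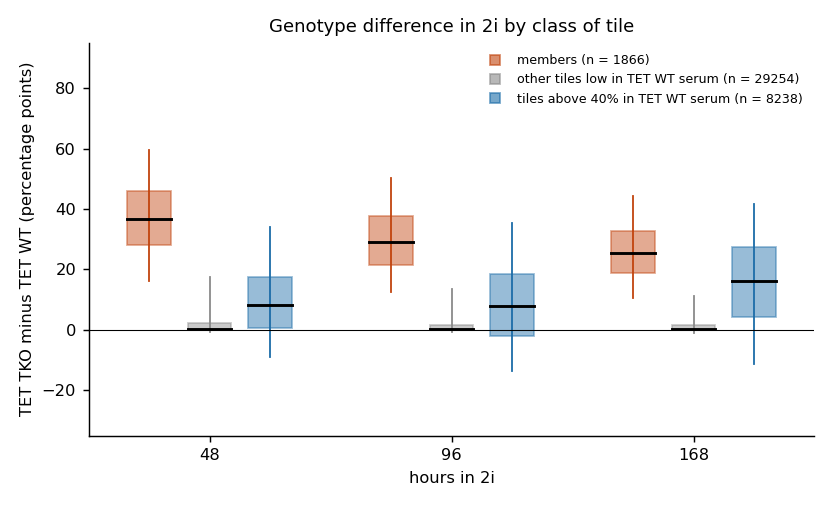
Difference between TET TKO and TET WT in percentage points at 48, 96 and 168 h of 2i for members, other low tiles and tiles above 40% in TET WT serum. Boxes span the quartiles, black bars are medians and thin lines run from the 5th to the 95th percentile of tiles, which are not replicates. The member median fell from 36.7 to 25.4 points while that of the tiles above 40% went from 8.401 to 16.3.

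Both lines lost methylation at the members within 2i. From 48 to 168 h 499 members (26.7%) fell in TET WT and 1330 (71.3%) in TET TKO, against 17.9% and 19.8% of all tiles (quasi-likelihood F test, adjusted p under 0.05 and 20 points or more). The median change over the members was -13.8 points in TET WT, from a median of 18.8% at 48 h, and -25.8 in TET TKO, from 58.2%. For tiles above 40% the median changes were -32.5 points in TET WT and, in the knockout, -25.8 points. Most of all tiles were other low tiles near 0%, of which few could fall by 20 points. Their called shares were 1.3% for the wild type and 2.79% for the knockout. The shares of all tiles thus do not show that members fell more often than methylated tiles. Lower by any amount at 168 h were 98.9% of tiles above 40% and 97.8% of members for the wild type. For the knockout these were 99.3% and 99.4%. The shares of the lines cannot be set against each other: a fall of 20 points was open to 871 members (46.7%) at 20% or more at 48 h in TET WT and to 1858 (99.6%) in TET TKO, and TET WT had 1 file at 168 h, whose spread is borrowed. Members at 10% or less in TET WT serum had a TET WT median of 5.35% at 48 h, and those between 10% and 20% one of 12.7%. Few of these could fall by 20 points, so a low share there says nothing about loss. The TET WT share was 17.3% with the spread of each tile alone, 52.9% without a minimum difference and 3.56% of the 842 members at 20% or less in TET WT serum, the last below the 17.9% of all tiles. The TET TKO share was 41.2% without TET TKO 168 h replicate 1, 39.2% without TET TKO 48 h replicate 2 and 21.4% with limma on log2 ratios of methylated to unmethylated calls.

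As a share of the level at 48 h, for tiles with at least 10% then, members kept a median of 21.7% at 168 h in TET WT (1408 tiles) and 54.4% in TET TKO (1866 tiles). Tiles above 40% kept 48.6% in TET WT and 65.7% in TET TKO. Other low tiles with at least 10% at 48 h kept 25.6% (1699 tiles) and 46.7% (4209 tiles), nearer to the members. In TET WT at 168 h, 1581 members (84.7%) were at 10% or less. In TET TKO 39 (2.09%) were, and 1439 (77.1%) were at 40% or less. Whether the share kept differs between lines more in members than in other tiles was not tested.

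By wild-type level, which the rule used, the members ran as follows, with no test. The 312 members at 10% or less in TET WT serum had medians of 44.7% in TET TKO serum, then 40.2% at 48 h, 26.8% at 96 h and finally 19.9% at 168 h, while TET WT stood at 0.671% at 168 h. The 482 members between 30% and 40% had medians of 76.4%, 68.2%, 50.3% and 38.6% in TET TKO, and TET WT stood at 7.67% at 168 h.

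The 5 members with the largest differences at 96 h, among those called at all 3 times, kept the genotypes apart in every file. The largest, chr14:90298501-90299000 (7 positions), read 27.4% and 23.2% in TET WT serum, 12.2% and 11.8% at 48 h, then 14.3% and 3.06% at 96 h and finally 3.81% at 168 h, over 49 to 119 calls. In TET TKO it read 85.7% and 84.1% in serum, 100% and 85.7% at 48 h, 78.6% and 92.9% at 96 h and 63.2% and 67.0% at 168 h, over 28 to 359 calls. No TET WT file came near a TET TKO file. The 7 positions can share reads, so a file may hold far fewer reads than calls. The difference at 96 h, from the summed calls of a group's files as for every named tile, was 75.1 points (quasi-likelihood F test, adjusted p 8.13e-05).

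Adjacent tiles among these 5, chr11:97928501-97929000 and chr11:97929001-97929500, differed by 68.5 and 73.1 points at 96 h (adjusted p 2.52e-05 and 5.65e-05). TET WT files of both lay between 0% and 9.72% at all times, and TET TKO files at 168 h between 64.4% and 77.5%. They are neighbours and may share reads and fragments, so they are not separate evidence. The other 2 tiles read lower in TET TKO at 168 h than at 96 h in both files. So did the tile with the largest difference and chr11:97928501-97929000, while the files of chr11:97929001-97929500 overlapped. At chr3:145460501-145461000 TET TKO read 84.5% and 66.7% at 96 h and 44.6% and 36.4% at 168 h. At chr5:64766001-64766500 it read 76.6% and 76.9% at 96 h and 55.6% and 48.5% at 168 h, with TET WT at 5.44% and 6.06% at 96 h.

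**Figure D3:**
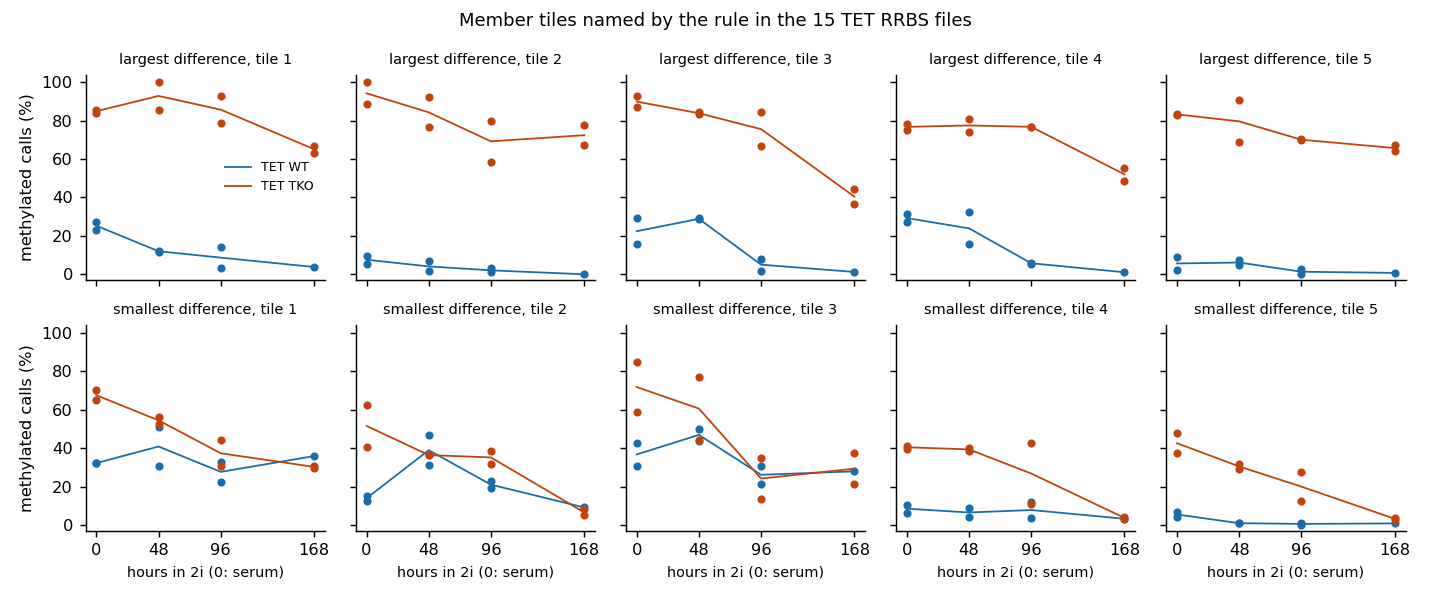
Methylated calls (%) in the 15 RRBS files of the TET lines against hours in 2i, with serum at 0, for the 5 members with the largest difference at 96 h (top) and the 5 with the smallest at 168 h (bottom). Points are files and lines join group means, blue for TET WT and orange for TET TKO. At the top no TET WT point lies above 32.3% and no TET TKO point below 36.4%, and at the bottom the 168 h points lie at 0.787% to 35.8% in TET WT and 2.80% to 37.5% in TET TKO.

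At the other end, the 5 members with the smallest differences at 168 h differed in which line stood out. At chr4:140196001-140196500 TET TKO went from 37.2% and 47.8% in serum to 29.2% and 31.7% at 48 h, 12.4% and 27.5% at 96 h and 3.59% and 2.80% at 168 h, while TET WT files lay between 0% and 6.74%. The same tile read 82.4% in UHRF1 WT serum and 18.6% and 19.5% in E14 serum. Here the TET difference was 30.2 points at 48 h (adjusted p 0.00023) and 2.62 at 168 h (adjusted p 0.282). Similarly chr11:97774501-97775000 reached 3.14% and 4.17% in TET TKO at 168 h, with 3.2% in TET WT. At chr3:107699001-107699500 TET WT read 32.1% and 32.3% in serum, 51.0% and 30.7% at 48 h, then 22.4% and 32.9% at 96 h and finally 35.8% at 168 h, no lower at the end than in serum. TET TKO read 64.9% and 70.2% in serum and 30.7% and 29.7% at 168 h (difference -5.31 points, adjusted p 0.655). At chr2:152531501-152532000 TET WT read 12.5% and 15.3% in serum but 46.9% and 31.0% at 48 h, over 32 and 42 calls, next to 36.4% in both TET TKO files. The replicates of chr8:90906501-90907000 overlapped between genotypes at every time in 2i, on 23 to 128 calls a file.

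Some members lay close together. The group with the most members, chr4:141030001-141035500, held 5 members among 7 tiles of the set. Their mean level was 22.2% in TET WT serum, with 69.9% in TET TKO serum, 15.8% and 47.7% at 96 h, and 5.15% and 43.2% at 168 h, with 5, 4 and 5 of them called at 48, 96 and 168 h. At chr7:52301001-52305500, 4 members averaged 19.3% and 63.8% in serum and 13.2% and 38.2% at 168 h, with 4, 3 and 4 called. At chr3:89039001-89043000, 3 members averaged 27.7% and 61.8% in serum and 6.95% and 32.6% at 168 h, with 2, 1 and 3 called.

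The next comparison followed the members in E14, to ask whether another wild-type line keeps them low in serum. Of the 1866 members 1809 were measured in all 12 E14 files, and their median level in serum was 43.97% and 45.56% in the E14 files. Above 40% in E14 serum were 1071 members (59.2%), against 656 of 28926 other low tiles (2.27%), and 65 members (3.59%) were at 10% or less. More than the midpoint between their TET WT and TET TKO serum levels was reached by 994 members (54.9%) in E14. Part of any such rise follows from the choice of tiles that were low in TET WT, so no test is given. The majority above 40% depended on the limits of the rule. Of the 816 members at 20% or less in TET WT serum, 246 (30.1%) were above 40% in E14 and the median was 32.0%, and with a gap of 20 points in place of 30 the median was 39.1%. Set beside other low tiles of like TET WT serum level, members were at a median of 36.8% in E14 serum and the others at 22.6% where TET WT was between 10% and 20%. Between 20% and 30% these medians were 49.6% and 37.0%, and between 30% and 40% they were 60.4% and 47.5%. These differences were not tested.

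**Figure D4:**
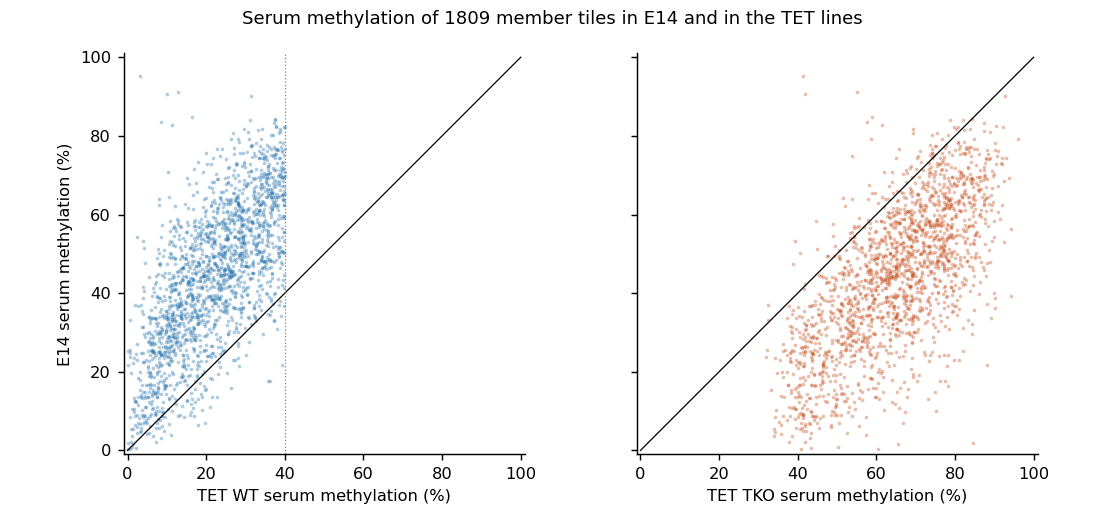
Serum methylation (%) of 1809 members in E14 against TET WT (left) and TET TKO (right). Each point is a tile, the mean of 2 files a group, the diagonal marks equal levels and the dotted line the 40% limit of the rule. Most points lie above the diagonal at the left and below it at the right.

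Across the 1809 members, which are not independent replicates, the E14 serum level ran with the TET WT serum level (Pearson r 0.682, Spearman rho 0.684) and with the TET TKO serum level (0.676 and 0.677). The 4 highest members in E14 serum showed how far lines could part. At chr1:172975001-172975500 E14 serum read 94.2% and 96.6%, TET WT serum 5.16% and 1.08% and TET TKO serum 40% and 42.6%, on 85 to 171 calls. E14 was also far above both TET lines at chr1:38870001-38870500 (91.3% and 90.9% against 4.55% and 21.2% in TET WT and 55.6% and 54.5% in TET TKO) and at chr2:157385001-157385500 (89.3% and 92.0% against 10.5% and 9.6%, and 43.6% and 40.3%). The fourth, chr10:126794501-126795000, stood at 87.8% and 92.4% in E14 and at 92.9% and 92.5% in TET TKO. The positions read were not always the same in number. Their median was 11 in the TET lines and 8 in E14 at the first tile, and 6 and 4 at the second. At the third it was 7 and 6.5, and at the fourth 7 in both. The part of positions or strain in these differences was not tested.

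The 4 lowest were 2 pairs of adjacent tiles that were nearly free of methylation in both wild-type lines. At chr16:3744001-3744500 (29 positions) E14 serum read 0.182% and 0.382% over 548 and 523 calls, TET WT serum 0.212% and 0%, and TET TKO serum 55.7% and 65.0%. In TET TKO this tile still read 25.5% and 22.8% at 168 h. Its neighbour chr16:3744501-3745000 stood at 1.34% and 0.263% in E14 serum and at 46.4% and 54.3% in TET TKO serum. The other pair, chr1:140743501-140744000 and chr1:140744001-140744500, read between 0% and 1.10% in E14 serum and between 35.7% and 50.9% in TET TKO serum. The chr16 pair was also nearly free of methylation in UHRF1 WT serum, at 2.58% and 1.43%. These 4 tiles were thus close to 0% in every wild-type serum file that measured them, unlike the median member.

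In 2i, E14 lost most of the methylation of the members by 168 h, after higher levels at 24 h. Group by group the median member stood at 63.0% and 60.5% in the 24 h files, 33.9% and 34.0% at 48 h, then 31.4% and 30.9% at 72 h, then 21.6% and 21.3% at 96 h and finally 7.96% and 8.37% at 168 h. Against serum, 349 members (19.3%) were higher at 24 h, compared with 1.81% of all 55777 E14 tiles (quasi-likelihood F test, adjusted p under 0.05 and 20 points or more). The median change was 14.2 points in members, 0.933 in tiles above 40% in TET WT serum and 0 in other low tiles. Tiles above 40% stood at a median of 83.7% in E14 serum, which leaves most of them no room for a rise of 20 points, while the median member began at 44.9%, so these classes cannot be set against each other. Other low tiles began at a median of 0.966%, with an upper quartile of 2.885% in serum and 3.719% at 24 h. The lower quartile of tiles above 40% went from 72.1% to 77.4%. By any amount, 93.1% of members were higher at 24 h, with 55.6% of tiles above 40% and 48.6% of other low tiles. Of the other low tiles 49.5% were lower. Higher levels at 24 h thus also occurred outside the members, in smaller shares of tiles, and these shares were not tested. The call at 24 h was made for 5.31% to 9.34% of members when a file of serum or 24 h was left out and for none with limma or with the spread of each tile alone. The share called at 24 h was also lower with a replicate block. E14 24 h files held 9581412 and 12874625 calls and serum files 19637120 and 19548820, and Tet1, Tet2 and Tet3 RNA stood at 3.24, 1.65 and -0.82 at 24 h against 6.15, 4.23 and 0.88 in serum (log2). The part of depth or of these levels in the difference was not tested.

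Lower than in serum were 66 members (3.65%) at 48 h, then 448 (24.8%) at 72 h, then 899 (49.7%) at 96 h and finally 1501 (83%) at 168 h, against 0.638%, 17.8%, 18.5% and 38.8% of all tiles. Many of all tiles were other low tiles with little methylation to lose, so these shares do not compare members with methylated tiles. Without a single serum or 48 h file, at most 1 member was called at 48 h, and none was with limma or with the spread of each tile alone. With a replicate block no member was called at 48 h either. With limma on log2 ratios the shares were 9.07% at 72 h and 29.7% at 96 h, and with the spread of each tile alone 13.9% at 72 h. The 72 h share was 14.5% with a TET WT serum limit of 20% and 15.3% with 50 calls per tile, and without a minimum difference the shares were 45.6% at 72 h and 79.5% at 96 h. Shares under these other settings count calls in either direction, here and in the UHRF1 lines. At 72 h 4 members (0.221%) were higher, with 0.0341% of all tiles. Members changed by a median of -33.8 points from serum to 168 h and tiles above 40% by -39.1. At 168 h 1632 of 1809 members (90.2%) were lower in E14 than the same tile in TET WT serum.

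The largest falls called in E14 were at chr1:137560501-137561000, chr9:56172501-56173000 and chr18:35374501-35375000. The first went from 82.1% and 79.5% in serum through 73.2% and 67.2% at 24 h, 60% and 65.1% at 48 h, then 47.1% and 43.7% at 72 h and 30.3% and 26.6% at 96 h to 5.50% and 5.21% at 168 h. It fell by 75.7 points (quasi-likelihood F test, adjusted p 4.01e-09). The other two fell by 73.1 and 71.7 points (adjusted p 6.3e-09 and 1.29e-07), each below its serum files from 48 h on. By contrast chr2:157385001-157385500, among the 4 highest in serum, still read 75.3% and 74.1% at 168 h.

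The UHRF1 lines asked how the same tiles respond when maintenance is impaired. Of the members, 418 were deep enough in all 23 usable UHRF1 files. These were denser than the rest, with a median of 13 positions against 7, and had like TET levels (19.8% in TET WT serum, with 62.2% in TET TKO serum, against 22.3% and 67.2%). In UHRF1 WT they were methylated in serum, with a median of 79.7% in its single file and 366 tiles (87.6%) above 40%. In the 416 members also measured in E14, the median was 79.5% in UHRF1 WT serum and 40.9% in E14 serum, and 70.3% and 57.4% at 24 h. The UHRF1 WT files then read 70.2% and 69.9% at 24 h, then 60.6% and 60.8% at 48 h, then 46.7% and 47.1% at 72 h, then 32.4% and 32.7% at 96 h and finally 13.3% and 12.4% at 168 h. From 24 to 168 h 378 members (90.4%) fell, against 9.42% of all 22700 tiles (quasi-likelihood F test, adjusted p under 0.05 and 20 points or more), with a median change of -51.8 points. Most of all tiles were other low tiles with little methylation to lose. Tiles above 40% changed by a median of -39.2 points and 1087 of 1091 (99.6%) were lower at 168 h, as were 417 of the 418 members (99.8%).

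UHRF1 KO stood below UHRF1 WT from serum to 96 h. The median member read 52.9% and 54.1% in UHRF1 KO serum, 38.2% and 37.3% at 24 h, then 25.4% and 24.4% at 48 h, then 19.9% and 18.9% at 72 h and finally 16.3% and 15.7% at 96 h. Lower in UHRF1 KO were 185 members (44.3%) in serum, 280 (67%) at 24 h, then 320 (76.6%) at 48 h, 282 (67.5%) at 72 h and finally 142 (34%) at 96 h. UHRF1 WT had 1 usable file in serum, so the serum calls assume that it varies like the replicated groups. The same calls covered 2.13%, 4.44%, 6.94%, 6.86% and 5.19% of all tiles, most of which were other low tiles with little methylation to lose. The median differences were -20.1, -27.5, -32.2, -25.9 and -15.3 points in members and -5.61, -17.3, -29.8, -32.7 and -30.4 in tiles above 40%. In serum 1 member (0.239%) was higher, with 0.145% of all tiles. With limma on log2 ratios the shares of members called were 0.957% in serum, 13.9% at 24 h, then 32.5% at 48 h, 0.478% at 72 h and finally 0.239% at 96 h, so these counts depend on the model. With the spread of each tile alone they were 21.1% in serum and 43.8% at 24 h. At 96 h the share was 17.2% with a TET WT serum limit of 20% and 53.1% without a minimum difference. Without UHRF1 KO serum replicate 2 the serum share was 21.5%, and without UHRF1 KO 24 h replicate 1 the share at 24 h was 39.5%. UHRF1 KO files from serum to 48 h held 3208182 to 6105853 calls, fewer than any usable UHRF1 WT file before 168 h.

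At 168 h the order of the lines turned. The median member read 22.2% in both UHRF1 KO files, above the 13.3% and 12.4% of UHRF1 WT and above its own 96 h files. Higher in UHRF1 KO were 32 members (7.66%) and lower 3 (0.718%), against 0.463% and 0.335% of all tiles. The median difference was 8.10 points in members, while it was -3.19 in tiles above 40% in TET WT serum. The share called in either direction at 168 h was 8.37%, and it ran from 0.957% to 4.78% when 1 file of 168 h was left out. It was 0% with the spread of each tile alone and 3.35% with limma. From 96 to 168 h the median change of UHRF1 KO was 6.21 points in members and 8.00 points in tiles above 40%, and that of UHRF1 WT -18.1 and -18.2 points. Over whole files of UHRF1 KO 9.22% and 9.92% of calls were methylated at 96 h and 11.34% and 11.04% at 168 h, and of UHRF1 WT 16.85% and 16.64%, then 11.30% and 11.35%.

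The largest differences called at 96 h were at chr9:75230501-75231000, chr13:99922001-99922500 and chr18:13038001-13038500. The first read 70.3% and 68.4% in UHRF1 WT at 96 h and 8.20% and 3.13% in UHRF1 KO, a difference of -62.9 points (quasi-likelihood F test, adjusted p 9.42e-07). It read 24.4% and 27.2% in TET WT serum and 89.9% in UHRF1 WT serum. The other two differed by -55.7 and -50.8 points (adjusted p 1.72e-06 and 5.41e-07).

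Bisulfite sequencing of chromatin bound by an antibody to dimethylated lysine 9 of histone H3 (H3K9me2), a mark of repressed chromatin that UHRF1 can bind, and of its input (ChIP-BS) gave an independent reading in E14. The paper describes the 2i cells of this assay as long-term 2i, so they are not a time of the RRBS course. Input calls in members were 46.7% ± 2.67 methylated in serum and 13.9% ± 0.34 in 2i (SD, n = 2). Bound calls were 66.1% ± 1.17 and 25.8% ± 2.46 methylated. Other low tiles read 6.10% ± 0.317 and 2.06% ± 0.196 in input, and 25.7% ± 0.46 and 6.36% ± 0.289 in bound. This order follows in part from the forming of the classes. At like TET WT serum levels the input of serum was higher in members, and that of 2i only in the lowest of 3 bands, with no test. At 10% or less the TET WT serum medians were unlike, at 6.59% in members and 0.476% in other low tiles. There 2i input read 10.2% ± 2.57 and 1.44% ± 0.14, and this band is not among the 3. Where TET WT serum was between 10% and 20%, input calls were 41.8% ± 4.05 methylated in members and 25.6% ± 0.542 in other low tiles in serum, and 10.2% ± 0.34 and 6.21% ± 0.356 in 2i. Between 20% and 30% they were 48.6% ± 3.32 and 40.3% ± 0.413 in serum, and 14.4% ± 0.93 and 14.6% ± 0.19 in 2i. Between 30% and 40% they were 58.1% ± 1.06 and 51.8% ± 2.19 in serum, and 19.5% ± 0.121 and 20.2% ± 2.38 in 2i. Bound calls were more methylated than input calls by 19.42 points in serum and 11.95 in 2i in members, by 19.56 and 4.30 in other low tiles and by 1.29 and 1.22 in tiles above 40%. Calls were uneven over the tiles above 40%, with 1042530 calls over 4606 tiles in 2i input replicate 1 and a median of 6 calls a tile. In the 2i input files 69.7% and 70.2% of their calls were methylated, while the median tile with 5 or more calls stood at 37.5% and 36.4%. These sums come from different tiles, since 489 and 565 members had a bound call in serum and 925 and 1002 an input call. Over the 362 members with 5 or more calls in both, the median difference of the tile was 15.2 points in serum, and over 188 such members in 2i it was 1.90 points, against 2.5 and 1.72 in tiles above 40% and 0 in other low tiles in both media. These differences were not tested.

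Coverage was thin. Members received 7317 bound and 17307 input calls in serum and 4329 and 15327 in 2i, over 259 to 1002 of the 1866 tiles in a file. Scaled to 1000000 autosomal calls a file, members took 154 and 169 in the bound serum files against 463 and 490 in input, and 110 and 85.9 in bound 2i files against 438 and 430 in input. Other low tiles took 609 and 632 in bound serum files and 7284 and 8315 in input. Tiles above 40% took 46280 and 41070 in bound serum files and 60220 and 55110 in input, so all 3 classes took a smaller share of the bound calls than of the input calls.

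**Figure D5:**
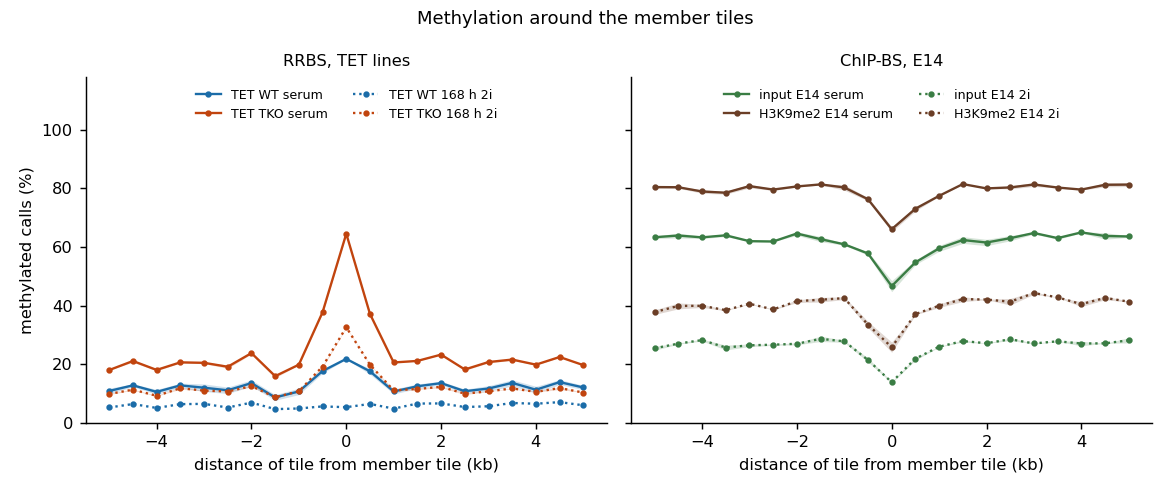
Methylated calls (%) in 500-bp tiles up to 5000 bp on either side of the members, in RRBS of the TET lines (left) and in ChIP-BS of E14 (right). Solid lines are serum and dotted lines 2i (168 h in RRBS, long-term in ChIP-BS). Lines are means over files, bands span the files, and member tiles were left out of the flanks. In serum RRBS the member tile is higher than the tiles at 1000 bp (64.5% against 20.2% in TET TKO), which follows in part from the rule. In ChIP-BS it is lower (46.7% against 60.2% in serum input), and RRBS covers only the CpG-rich part of the flanks.

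Around the members RRBS of the TET lines and ChIP-BS of E14 gave different pictures. They cover different DNA, since RRBS reads CpG-rich fragments, and different lines. The rule used the serum levels of the TET lines, so a member tile above its flanks in TET TKO serum was partly built in. In RRBS the tile itself held 64.5% methylated calls in TET TKO serum, the tiles directly beside it 37.2%, those at 1000 bp 20.2%, those at 2000 bp 23.3% and those at 5000 bp 18.9%. In TET WT serum these were 21.8%, 17.6%, 10.7%, 13.6% and 11.5%. Flank tiles that met the member rule were left out, so a lower genotype gap in the flanks is partly built in, and the gap was not particular to them. Tiles above 40% themselves held 68.2% and 83.4% in TET WT and TET TKO serum. In the same order, tiles directly beside them held 57.7% and 73.5%, and tiles at 1000 bp from them 44.5% and 58.2%. These tiles, too, thus stood above their flanks. In the input of E14 serum, which is not limited to CpG-rich fragments, the member tile held 46.7%, the adjacent tiles 56.3%, those at 1000 bp 60.2% and those at 5000 bp 63.6%. Other low tiles went from 6.10% to 16.6%, 32.6% and 65.4%. The deeper dip at other low tiles follows from a class formed of tiles near 0%. In 2i input, members held 13.9%, adjacent tiles 21.7% and tiles at 5000 bp 26.8%.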

How the data were processed

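RRBS and ChIP-BS libraries were deposited as counts of methylated and unmethylated calls per cytosine position, which the authors mapped to NCBIM37, with the strands of a CpG as separate positions. The submitters' processing notes name Trim Galore 0.3.5, Bismark 0.12.3, Bowtie2 and TopHat2 2.0.11 without their roles, and whether duplicates were removed was not given in the sources used here. Expression was deposited as log2 values per gene that the authors had corrected for length and depth and set to a common 75th percentile. PCR duplicates would make calls less independent than their number implies.

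Calls were summed per autosomal tile of 500 bp and file, and tiles needed 20 calls and 3 positions in all files of a set (TET, 15 files and 39358 tiles; E14, 12 files and 55777 tiles; UHRF1, 23 files and 22700 tiles). Replicate 2 of UHRF1 WT in serum, with 6 positions, was left out. A level is the percentage of methylated calls, and a group level is the mean of its files. Medians over tiles of these levels and of their differences are descriptions. Each set was fitted with a quasi-binomial model of the groups whose dispersion was moderated with limma 3.58.1 in R 4.3.3, and tested by a quasi-likelihood F test with Benjamini-Hochberg adjustment over all tiles of the set. A call needed an adjusted p under 0.05 and a difference of 20 points. That difference came from the summed calls of a group's files and not from the mean of the files, so a deeper file weighs more. Groups with 1 file (TET WT 168 h, UHRF1 WT serum) borrow the spread of the others. In simulated data 200 tiles per comparison were raised by the same amount, larger than the 20 points of a call. Of these, 63 were recovered for TET at 96 h (39358 tiles), 137 for E14 at 168 h (55777 tiles) and 186 for UHRF1 at 96 h (22700 tiles). False calls numbered 2, 0 and 1. Most such changes were thus missed in the simulated TET data at 96 h. There all other tiles were given no difference, and the spread was set to a fixed value rather than to that of the files. The recovered numbers therefore do not give the share of changes missed in the measured data. Other steps used Python 3.11.15, numpy 2.4.6 and pandas 2.3.3.

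Replicates correlated at r 0.913 to 0.995 over tiles. Their calls differed by a chi-square of 1.26 to 2.02 per tile, and no pair of files was identical. The ChIP-BS comparison over tiles with 5 calls in both bound and input, and that of members with other low tiles by TET WT serum level, were chosen after seeing the data. ChIP-BS files held 17325308 to 25246767 calls.

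The members, the tile classes and the tests were chosen with earlier results of these data known. Tiles named in the text were the 5 members with the largest TET difference at 96 h among those called at all 3 times, the 5 with the smallest at 168 h, the 4 highest and 4 lowest in E14 serum, the 3 largest called falls in E14 to 168 h, the 3 largest called UHRF1 differences at 96 h, the 3 neighbour groups with the most members (ties to the lower chromosome and start), and 2 tiles on each side of each limit. H3K9me2 ChIP-seq is on another build and was not used here, nor was a gene annotation or genome, and no coordinate was converted. Alternatives were other limits on calls, positions, level and gap, other estimates of the spread, limma on log2 ratios with 0.5 calls added, no minimum difference, a replicate block and leaving out each file.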

Additional observations from a re-analysis of the deposited data

Results flagged for a closer look

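UHRF1 WT and UHRF1 KO moved in opposite directions at the members between 96 and 168 h of 2i. The median over the 418 members, taken as the mean of the 2 file medians, changed by -19.7 points in UHRF1 WT and by 6.22 points in UHRF1 KO. Both UHRF1 KO files at 168 h lay above both at 96 h, and both UHRF1 WT files at 168 h lay below both at 96 h. The other tiles of these files moved likewise: the median change was -18.2 points in UHRF1 WT and 8.00 in UHRF1 KO in tiles above 40% in TET WT serum, and -0.146 and 0.295 in other low tiles. The difference between the lines in this change was not tested. UHRF1 KO files at 168 h listed 1720507 and 2580559 positions, against 1612203 and 1522319 at 96 h, and the part of this in the change was not tested.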

How the results depend on the processing

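Shares below are of the members tested. With 10 calls per tile there were 3726 members, an E14 serum median of 46.3% and a 24 h share in E14 of 12.8%, and with 50 calls 252 members, an E14 serum median of 41.2%, a TET difference at 48 h of 34.6 points and an E14 72 h share of 15.3%. Requiring 5 positions put the E14 168 h median at 8.62%. With a TET WT serum limit of 20% there were 842 members, TET differences of 26.6 points at 96 h and 21.6 at 168 h, E14 medians of 32.0% in serum and 4.65% at 168 h, E14 shares of 2.33% at 48 h and 14.5% at 72 h, a UHRF1 share of 17.2% at 96 h and a TET WT share of 3.56% from 48 to 168 h. A gap of 20 points gave 3070 members, TET differences of 29.9, 23.5 and 20.8 points at 48, 96 and 168 h and E14 medians of 39.1% in serum and 7.19% at 168 h. A gap of 40 points gave 1032 members, 43.0, 34.1 and 29.3 points, 48.9% and 8.75%, and a UHRF1 168 h share of 13.4%. These medians move partly by construction, since the limits choose other tiles. Averaging position percentages gave 36.4 points at 48 h and 8.59% in E14 at 168 h.

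With the dispersion of each tile alone the E14 shares were 0% at 24 and 48 h and 13.9% at 72 h, the UHRF1 shares 21.1% in serum, 43.8% at 24 h and 0% at 168 h, and the TET WT share 17.3%. With limma on log2 ratios the E14 shares were 0% at 24 and 48 h, 9.07% at 72 h and 29.7% at 96 h, the UHRF1 shares 0.957% in serum, 13.9%, 32.5%, 0.478%, 0.239% and 3.35% at 24, 48, 72, 96 and 168 h, and the TET TKO share from 48 to 168 h 21.4%. Without a minimum difference the E14 shares were 45.6% at 72 h and 79.5% at 96 h, the UHRF1 share at 96 h 53.1% and the TET WT share 52.9%. The cause was not tested. A prior dispersion that varies with the level, chosen after seeing the data, moved no count by over 1.5 times.

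With a replicate block the E14 shares were 9.18% at 24 h and 0% at 48 h and the UHRF1 168 h share 4.31%, and no other count moved by over 1.5 times. The replicate numbers did not pair the files: deviations of same-numbered files correlated at -0.0509 to 0.109 in TET, -0.0149 to 0.0584 in E14 and -0.0564 to 0.074 in UHRF1.

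Leaving out each file in turn gave TET differences of 35.9 to 37.0 points at 48 h and 24.8 to 25.6 at 168 h, TET shares of 51.3% to 73.7% at 96 h, a TET TKO share from 48 to 168 h of 39.2% to 66.7%, an E14 168 h median of 7.96% to 8.68%, E14 shares of 5.31% to 9.34% at 24 h and 0% to 0.0553% at 48 h, and UHRF1 shares of 21.5% to 34.2% in serum, 39.5% to 61.0% at 24 h and 0.957% to 4.78% at 168 h. A group left with 1 file is assumed to vary like the others. Single files in TET WT 168 h and UHRF1 WT serum, and the shallow UHRF1 KO files, limit those comparisons.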
